A study of Mus musculus with 2 samples.

Results

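The genes of Wnt and R-spondin signalling were examined in total RNA of the adrenal gland of 2 mice. They were chosen by name, as protein-coding genes of the Wnt, Fzd, Rspo, Dkk, Sfrp, Nkd and Axin families together with 17 further named genes of the pathway; the rule itself uses names and no measured value. This gave 62 genes of the 55536 in the tables, of which 21901 had a protein-coding transcript. The members fell into 10 roles, from 19 Wnt ligands at the outside of the cell to 4 TCF/LEF factors in the nucleus.

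Both mice belonged to 1 group. They were adult females of 8 to 10 months from a cross of the 5xFAD strain with CAST, and no other genotype, sex, age or treatment was analysed here. 5xFAD mice carry human transgenes of familial Alzheimer's disease under the neuronal Thy1 promoter, and CAST is a wild-derived inbred strain. Whether each of the animals carried the transgenes was not checked. The animals, called mouse 2 and mouse 1 after their biological replicate numbers, share 1 donor identifier, so their separateness rests on those numbers. Each library was made from 300 ng of RNA with a strand-marking kit after reduction of ribosomal RNA, with ERCC spike-in RNA added.

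Wnt proteins are lipid-modified secreted signals that bind Frizzled receptors and the co-receptors Lrp5 and Lrp6, which stops the destruction complex of Axin and Apc from degrading beta-catenin. Beta-catenin then enters the nucleus and acts with TCF/LEF factors. R-spondins, which bind Lgr receptors, block the ligases Znrf3 and Rnf43, which otherwise remove Frizzled receptors from the cell surface, so R-spondins strengthen the Wnt signal. In the mouse adrenal cortex, beta-catenin activity is highest in the outer zone, the aldosterone-producing zona glomerulosa, where Wnt4 is made, while the surrounding capsule is a known source of Rspo3.

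Genes held 32192201 expected counts in the library of mouse 2 and 36558609 in that of mouse 1. TPM (a level per unit of transcript length) was taken as deposited and not rescaled between the mice. Nuclear protein-coding genes held 32.3% of all TPM in mouse 2 and 29.5% in mouse 1, so TPM of messenger RNAs tends to read higher in mouse 2, and differences between the mice are therefore given as log2 ratios of scaled counts. All of the 6 fasciculata, 9 glomerulosa, 4 X-zone, 8 capsule and 6 chromaffin markers reached 1 TPM in both mice, and none of the 5 kidney, 4 ovary or 3 skeletal muscle markers did. Fat was also present, since the 8 adipocyte markers summed to 2431 TPM in mouse 2, against 1449 TPM in mouse 1. The glands were measured whole, so fewer cells of a type and less RNA per cell cannot be told apart.

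The reference sequence before the start sites of the leading members is shown first. Wnt4 and Lgr4 led their families, Ctnnb1 was the highest member, Axin2 is the usual readout of the pathway, and RNA of Rnf43 was assigned to separate starts. Each stretch is RefSeq sequence (GRCm38.p6) upstream of the first base of the named GENCODE transcript, written 5′ to 3′. Capitals mark GGGCGG, the GC box, found by search on both strands, so that CCGCCC is the same box on the other strand and adjacent boxes can overlap.
Wnt4-201 (chr4:137277385-137277488, + strand): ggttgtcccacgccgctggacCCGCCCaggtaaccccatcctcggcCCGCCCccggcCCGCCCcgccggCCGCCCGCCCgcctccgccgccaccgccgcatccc
Lgr4-201 (chr2:109917397-109917646, + strand): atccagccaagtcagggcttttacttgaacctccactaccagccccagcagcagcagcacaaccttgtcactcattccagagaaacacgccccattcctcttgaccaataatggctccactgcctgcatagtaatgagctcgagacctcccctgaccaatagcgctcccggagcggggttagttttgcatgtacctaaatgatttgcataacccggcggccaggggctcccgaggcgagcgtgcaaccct
Axin2-201 (chr11:108920099-108920348, + strand): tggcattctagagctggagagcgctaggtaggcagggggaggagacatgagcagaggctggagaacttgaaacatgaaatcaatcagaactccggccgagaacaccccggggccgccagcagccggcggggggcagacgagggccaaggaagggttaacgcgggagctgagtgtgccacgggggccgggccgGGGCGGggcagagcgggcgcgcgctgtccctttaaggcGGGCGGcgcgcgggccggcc
Ctnnb1-201 (chr9:120933150-120933399, + strand): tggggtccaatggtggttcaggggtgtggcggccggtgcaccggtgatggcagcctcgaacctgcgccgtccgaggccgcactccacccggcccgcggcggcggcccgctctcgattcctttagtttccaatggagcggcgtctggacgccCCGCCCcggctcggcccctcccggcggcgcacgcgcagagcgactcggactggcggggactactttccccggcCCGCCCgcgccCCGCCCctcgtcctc
Rnf43-209 (chr11:87662837-87663086, + strand): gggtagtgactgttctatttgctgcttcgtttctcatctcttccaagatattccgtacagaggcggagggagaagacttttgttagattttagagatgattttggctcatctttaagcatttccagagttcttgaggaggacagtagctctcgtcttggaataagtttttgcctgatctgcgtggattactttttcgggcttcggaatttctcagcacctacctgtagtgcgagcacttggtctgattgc
Rnf43-201 (chr11:87699647-87699896, + strand): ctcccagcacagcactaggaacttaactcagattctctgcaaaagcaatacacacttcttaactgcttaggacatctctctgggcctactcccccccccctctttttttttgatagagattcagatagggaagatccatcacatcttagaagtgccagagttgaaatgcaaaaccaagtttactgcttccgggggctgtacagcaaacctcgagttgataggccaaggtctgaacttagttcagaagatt
The Wnt4 stretch was cut to 104 bases, since the RefSeq start lies 146 bases inside the GENCODE transcript. It held 5 GC boxes, the nearest beginning 31 bases before the start, and 83.7% of its bases were G or C. The Ctnnb1 stretch held 3 GC boxes and 74.8% G or C, and that of Axin2 2 boxes and 69.2%. The Lgr4 stretch held none at 55.6%, and neither did the Rnf43 stretches at 44.4% and 45.2%, the first of which overlaps an exon of the noncoding transcript Rnf43-206.

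Windows of 250 bases before a RefSeq start could be matched for 40 of the 62 members, 50 windows in all. A GC box stood in 68% of these member windows, against 32.7% of all 32851 windows. In the first 104 bases of all windows, the part farthest from the RefSeq start, the share was 11.0%. The Wnt4 stretch is the same part of its RefSeq window, but it ends at the GENCODE start. No share was taken for the 104 bases directly before a start. CTTTG, the core of the TCF/LEF site, stood in 42% of the member windows and 48.6% of all windows, and the longer forms CTTTGAA and CTTTGAT, which contain it, in 2% and 4% of the member windows, against 4.46% and 3.21% of all. None of the 6 stretches shown held CTTTG or TATAAA, the TATA box, which stood in 18% of member windows and 12.4% of all. CAAGGTCA, a form of the site of Nr5a1, the steroidogenic nuclear receptor, stood in none of the 50 member windows and in 1.33% of all. These are matches of letters in short windows and were read no further.

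Of the 62 members, 37 reached 1 TPM in both mice, or 59.7% of the members, against 54.4% of the 21901 protein-coding genes, and 13 of the 37 reached 10 TPM. Another 2, Lgr6 and Sfrp5, did so in mouse 2 alone, and 23 in neither mouse. The member just inside the threshold was Dkk2, with 1.03 TPM in mouse 2 and 1.05 TPM in mouse 1. Sfrp5 lay just outside, with 1.62 TPM in mouse 2 and 0.97 TPM in mouse 1. Every role had detected members, but few of the ligands were among them, whereas nearly all receptors and all TCF/LEF factors were. All 62 members had whole-number expected counts and a posterior SD of 0 in both mice, and so carried no sign of reads split with another gene by the model.

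**Figure D1:**
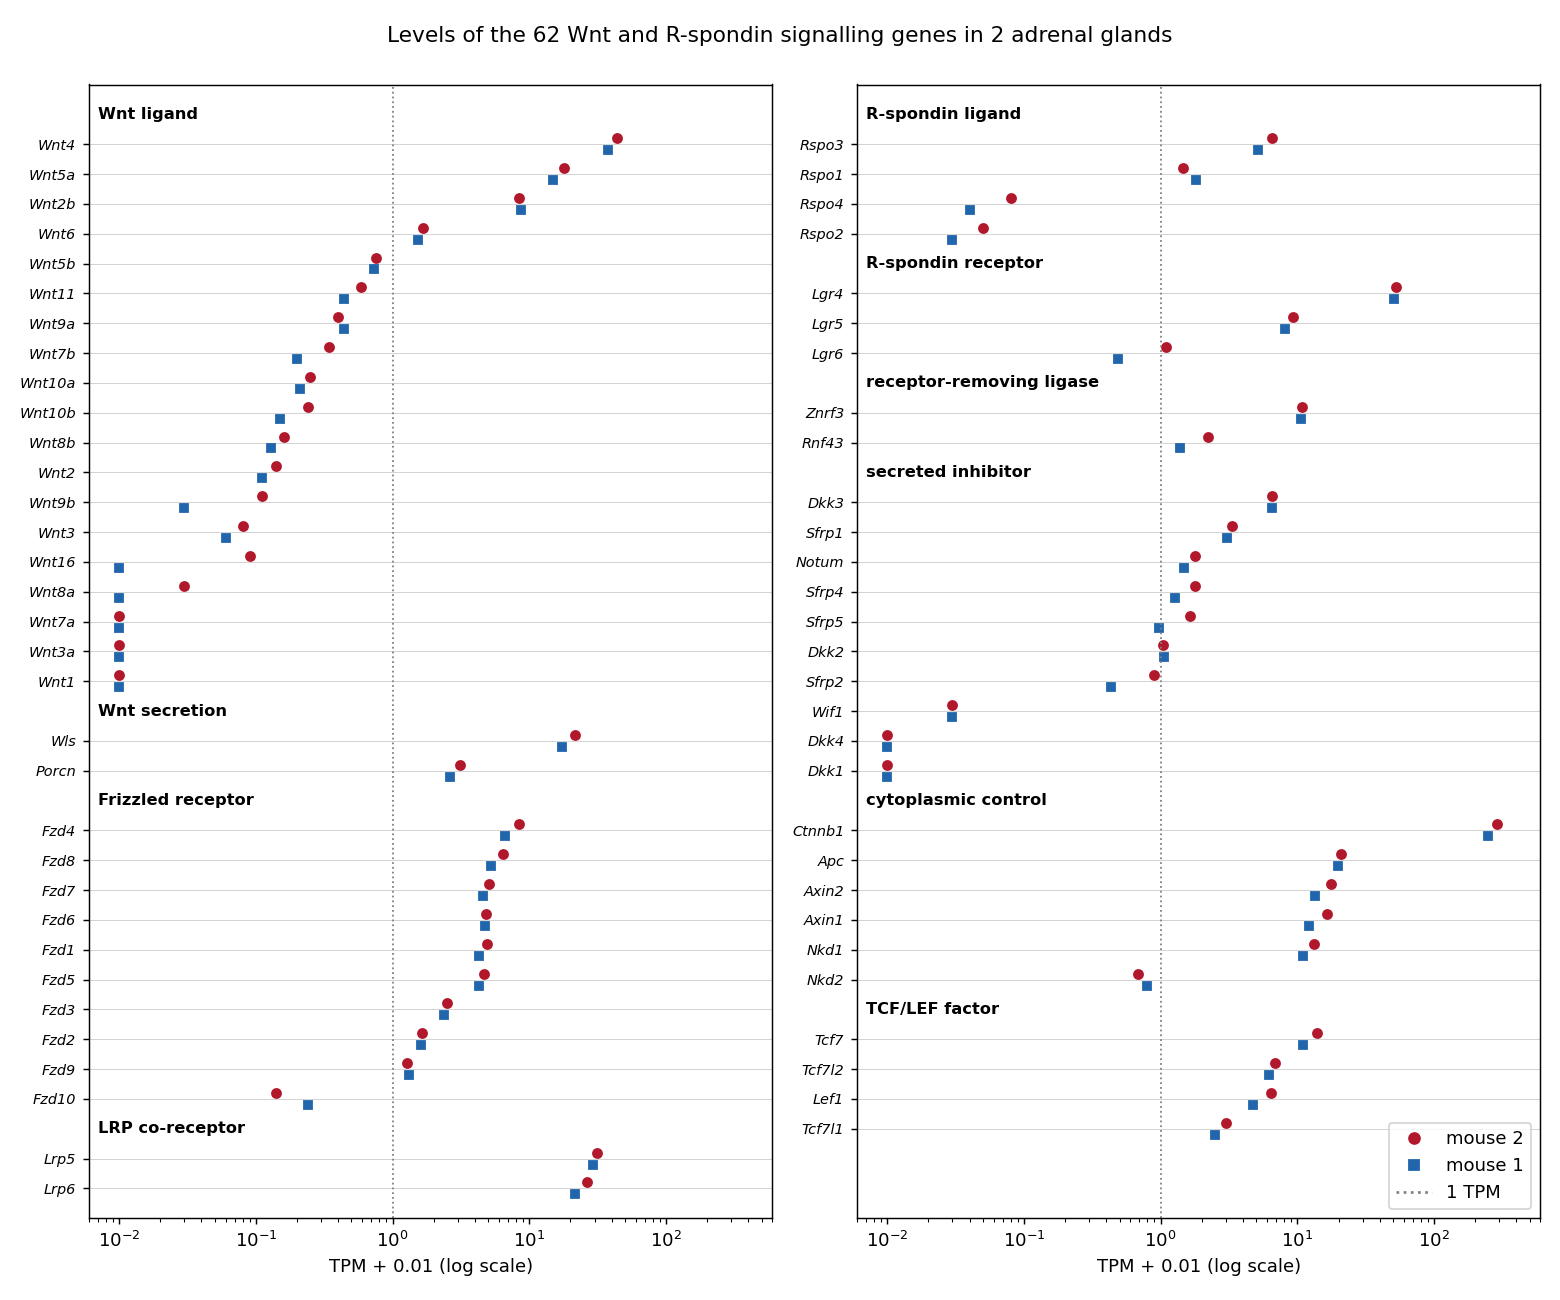
Level of each of the 62 members in mouse 2 (circles) and mouse 1 (squares), as TPM plus 0.01 on a log scale, grouped by role and ordered by mean; the dotted line is 1 TPM and members listed at 0 sit at the left. Ctnnb1 stands apart on the right, and the Wnt ligands run from Wnt4 down to 3 members at 0 in both mice.

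Among the 19 Wnt ligands, 4 reached 1 TPM in both mice. Wnt4, the ligand of the zona glomerulosa in mice (chr4:137277489-137299726), had 43.8 TPM in mouse 2 and 37.4 TPM in mouse 1, or 40.6 ± 4.58 TPM (SD, n = 2). It took 58.5% of the ligands' summed TPM in mouse 2, against 57.7% in mouse 1, and it was the third highest of all 62 members. Wnt5a, best known for signalling that does not run through beta-catenin (chr14:28504750-28527448), had 18.0 TPM in mouse 2 and 14.9 TPM in mouse 1. Wnt2b, which signals through beta-catenin, had 8.4 TPM in mouse 2 and 8.61 TPM in mouse 1, and Wnt6 had 1.67 TPM in mouse 2, against 1.52 TPM in mouse 1. The order Wnt4, Wnt5a, Wnt2b, Wnt6 held in each mouse, with no overlap between neighbours.

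The other 15 ligands had means from 0 to 0.735 TPM, the highest being Wnt5b with 0.75 TPM in mouse 2 and 0.72 TPM in mouse 1. Wnt5b overlaps Fbxl14 on the opposite strand, a gene with 1181 counts in mouse 2 and 1225 in mouse 1, while Wnt5b itself had 53 counts in mouse 2 and 61 in mouse 1. How the authors' counting used strand is not given in the sources used here. Wnt1, Wnt3a and Wnt7a had no count in either mouse. As far as counting error goes, a count of 0 allows up to 0.0932 CPM (counts scaled to the library total) in mouse 2, against 0.0821 CPM in mouse 1. The ligand genes that sit as neighbours in the genome were unlike in level where one was detected. Wnt6 and Wnt10a lie 6194 bases apart on chromosome 1, and Wnt10a had 0.24 TPM in mouse 2, against 0.2 TPM in mouse 1. The pairs Wnt3a and Wnt9a, Wnt9b and Wnt3, and Wnt10b and Wnt1 held no member above 0.43 TPM in either mouse.

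**Figure D2:**
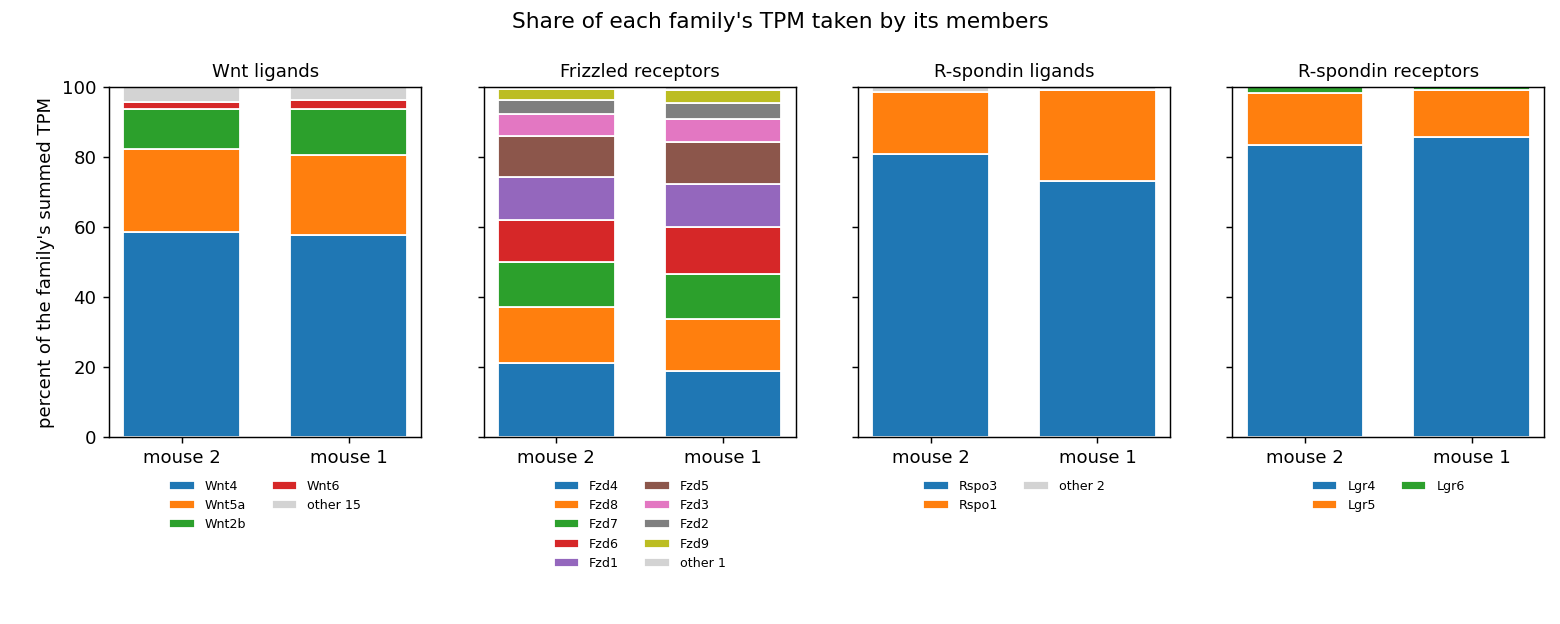
Percent of the summed TPM of the Wnt ligands, Frizzled receptors, R-spondins and R-spondin receptors taken by each member, with mouse 2 on the left and mouse 1 on the right of each panel. Wnt4, Rspo3 and Lgr4 each took the larger part of their family in both mice, while the highest Frizzled, Fzd4, took 21.2% in mouse 2 and 18.9% in mouse 1.

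The genes that let a cell release Wnt proteins were both detected. Wls, the carrier that brings Wnt proteins to the surface, had 21.7 TPM in mouse 2 and 17.3 TPM in mouse 1. Porcn, the enzyme that attaches the lipid, had 3.11 TPM in mouse 2, against 2.64 TPM in mouse 1.

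No single Frizzled receptor took the larger part of the family's TPM, unlike Wnt4 among the ligands. Of 10, 9 reached 1 TPM in both mice, and Fzd4, which also serves the ligand norrin, was highest with 8.39 TPM in mouse 2 and 6.68 TPM in mouse 1. Next came Fzd8 with 6.37 TPM in mouse 2 and 5.21 TPM in mouse 1. Fzd7, Fzd6, Fzd1 and Fzd5 lay between 4.66 and 5.06 TPM in mouse 2 and between 4.27 and 4.73 TPM in mouse 1, and their order differed between the mice. Fzd3, known for axon guidance and planar polarity, had 2.49 TPM in mouse 2 and 2.35 TPM in mouse 1, Fzd2 had 1.62 TPM in mouse 2 and 1.61 TPM in mouse 1, and Fzd9 had 1.26 TPM in mouse 2 and 1.31 TPM in mouse 1. Fzd10 alone fell short, with 13 counts in mouse 2 and 29 in mouse 1.

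The co-receptors stood above every Frizzled. Lrp5 had 31.2 TPM in mouse 2 and 29.3 TPM in mouse 1, and Lrp6 26.3 TPM in mouse 2, against 21.5 TPM in mouse 1. Lrp5 was thus the higher in each mouse in the first quantification. In a second quantification of the same reads this order was kept in mouse 1 only. There, Lrp6 had 28.9 TPM in mouse 2, above Lrp5 with 25.6 TPM in mouse 2.

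Of the R-spondins, Rspo3 (chr10:29452416-29535867) had 6.52 TPM in mouse 2 and 5.1 TPM in mouse 1, and Rspo1 1.44 TPM in mouse 2 and 1.81 TPM in mouse 1. Rspo3 took 80.8% of the summed R-spondin TPM in mouse 2 and 73.3% in mouse 1. Rspo4 had 0.07 TPM in mouse 2 and 0.03 TPM in mouse 1, and neither it nor Rspo2 had more than 5 counts in a library. Their receptors were the more abundant side. Lgr4 (chr2:109917647-110014257), the broadly expressed receptor, had 53.1 TPM in mouse 2 and 51.1 TPM in mouse 1, or 52.1 ± 1.41 TPM (SD, n = 2), second only to Ctnnb1 among the members. It took 83.6% of the receptors' TPM in mouse 2 and 85.7% in mouse 1. Lgr5, known as a stem cell marker of the gut, had 9.3 TPM in mouse 2 and 8.04 TPM in mouse 1, and Lgr6 had 1.09 TPM in mouse 2, against 0.48 TPM in mouse 1.

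The ligases that R-spondins restrain were unequal. Znrf3, whose loss in the mouse adrenal cortex is known to enlarge it, had 10.8 TPM in mouse 2 and 10.7 TPM in mouse 1. Rnf43, its close relative, had 2.2 TPM in mouse 2 and 1.37 TPM in mouse 1, below Znrf3 in each mouse.

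The 10 secreted inhibitors among the members were low. Frzb, a secreted Wnt antagonist that the naming rule leaves out, was far higher and is given below with the other lists. Dkk3, which despite its name is not known to block Lrp5 and Lrp6 as Dkk1 does, was highest with 6.47 TPM in each mouse. Sfrp1, a decoy that binds Wnt proteins, had 3.3 TPM in mouse 2 and 3.06 TPM in mouse 1. Notum, which removes the lipid from Wnt proteins, had 1.77 TPM in mouse 2 and 1.47 TPM in mouse 1, and Sfrp4, another decoy, had 1.78 TPM in mouse 2, against 1.27 TPM in mouse 1. With Dkk2 these were the 5 inhibitors of 10 that reached 1 TPM in both mice. Sfrp2 had 0.88 TPM in mouse 2 and 0.42 TPM in mouse 1. Wif1 had 1 count in mouse 2 and 2 in mouse 1, and Dkk1 and Dkk4, the classical Lrp6 inhibitors, had none in either.

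Inside the cell, Ctnnb1, which encodes beta-catenin (chr9:120929216-120960507), had 288.5 TPM in mouse 2 and 249 TPM in mouse 1, or 269 ± 27.8 TPM (SD, n = 2). That placed it highest of the members, at the 99.4th percentile of protein-coding genes. The negative regulators followed far below: Apc, a scaffold of the destruction complex, had 20.9 TPM in mouse 2 and 19.9 TPM in mouse 1. Axin2, a feedback inhibitor that is itself a widely used readout of beta-catenin activity, had 17.6 TPM in mouse 2 and 13.3 TPM in mouse 1. Axin1, its constitutive counterpart, had 16.6 TPM in mouse 2 and 12.2 TPM in mouse 1. Axin2 was thus the higher of the pair in each mouse, by less than the spread between the mice. In the second quantification the order was kept in mouse 1 only: Axin2 had 14.7 TPM in mouse 2 and 13.5 TPM in mouse 1, and Axin1 15.4 TPM in mouse 2 and 11.7 TPM in mouse 1. Nkd1, a feedback inhibitor that binds Dishevelled, had 13.3 TPM in mouse 2 and 10.9 TPM in mouse 1, and its relative Nkd2 had 0.67 TPM in mouse 2 and 0.78 TPM in mouse 1.

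All 4 TCF/LEF factors were detected. Tcf7, also known as Tcf1, had 14.0 TPM in mouse 2 and 11.0 TPM in mouse 1. Tcf7l2 had 6.89 TPM in mouse 2 and 6.23 TPM in mouse 1, and Lef1, itself raised by beta-catenin in many tissues, had 6.36 TPM in mouse 2 and 4.7 TPM in mouse 1. Tcf7l1, often a repressor of the same targets, was lowest with 2.98 TPM in mouse 2 and 2.49 TPM in mouse 1. Tcf7 was highest in each mouse, while Tcf7l2 and Lef1 did not differ beyond their spread.

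TPM was higher in mouse 2 for 32 of the 37 detected members, lower for 4 and equal for 1. On counts scaled by TMM (edgeR) the lean was smaller, though read over a wider set that includes these 37. Among 49 members with a mean of at least 10 counts, 30 were higher and 19 lower in mouse 2, with a median log2 ratio of mouse 2 over mouse 1 of 0.04, against -0.0011 over all 17666 genes tested. None of the 49 was 2-fold apart, while 1.15% of all genes were at least 2-fold higher and 1.81% at least 2-fold lower in mouse 2. The median size of the log2 ratio was 0.12 in the members and 0.13 in all genes, and 41 of the 49 lay within 0.5. With 1 library on each side these ratios have no replicate check.

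The counts were also compared by an exact two-sided binomial test, adjusted over all 17666 genes (Benjamini-Hochberg), which sets these libraries against each other and says nothing of a condition. At an adjusted p below 0.05, 8 members were higher in mouse 2, or 16.3% of the 49, beside 10.4% of all genes. Another 2 were lower, or 4.08%, beside 11.0%. Together that was 20.4% of the 49 members, close to the 21.3% of all genes, and 18 members had an unadjusted p below 0.05, or 36.7%, beside 31.7%. With the directions pooled, a share of this size is not particular to the members. The lean of the members' calls to mouse 2 was not tested. Under total count scaling 13 of the 49 members were higher in mouse 2, beside 17.0% of all genes, and 1 lower, beside 7.67%. In a second quantification of the same reads 10 of the 49 members were higher, beside 10.9% of all genes, and 4 lower, beside 10.2%. With nuclear protein-coding genes alone, 11 members passed in either direction, beside 22.8% of those genes.

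**Figure D3:**
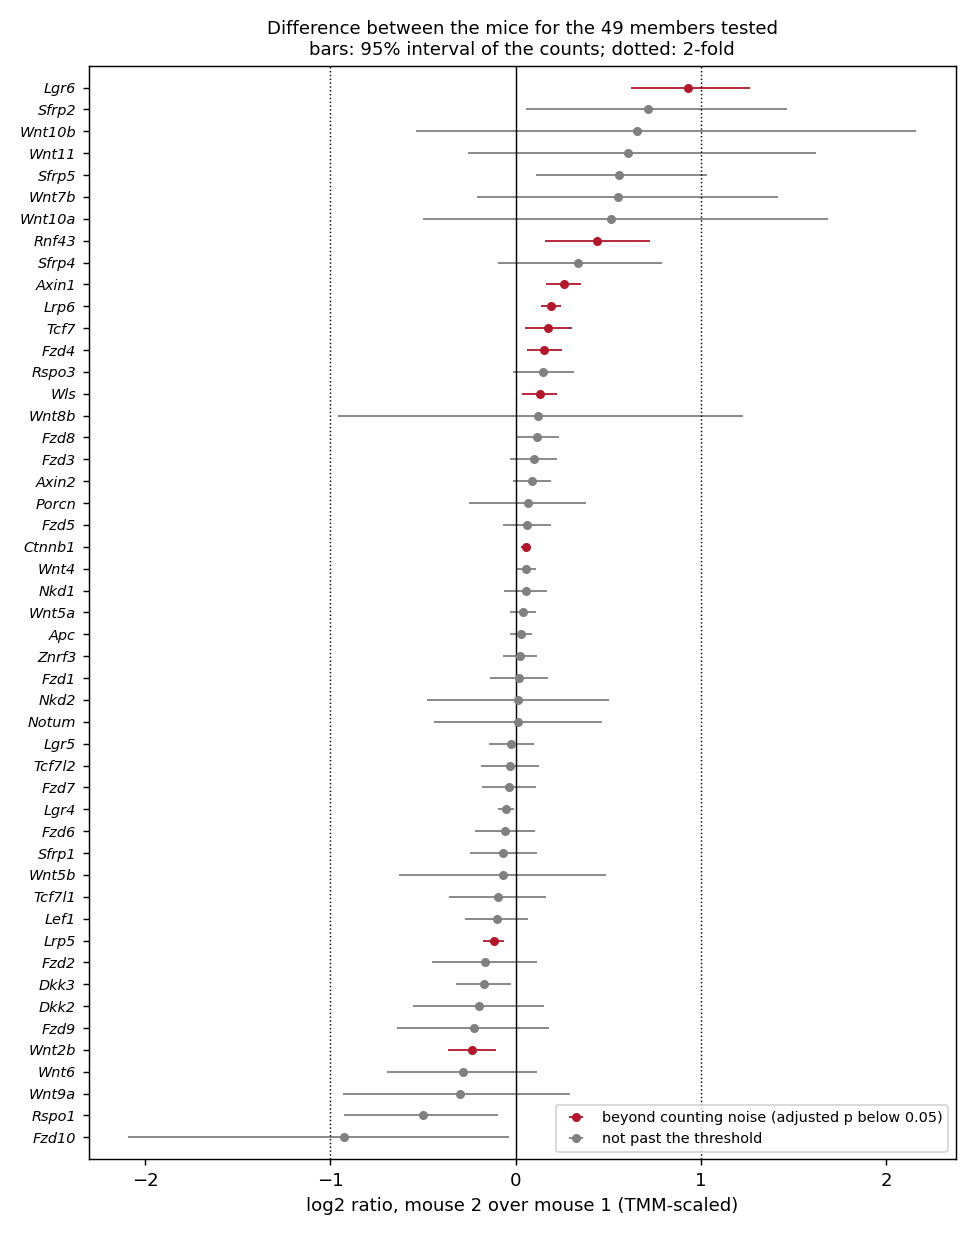
Log2 ratio of mouse 2 over mouse 1 for the 49 members tested, with the 95% interval that the counts allow; positive values are higher in mouse 2, dotted lines mark 2-fold, and red points passed the adjusted exact binomial test. The 10 red points include narrow ones near 0, such as Ctnnb1, and no point lies beyond a dotted line.

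The largest of the 10 differences was that of Lgr6, an R-spondin receptor, which had 226 counts in mouse 2 and 129 in mouse 1. Its log2 ratio was 0.93 (95% interval of the counts 0.63 to 1.27, adjusted p 3.5e-08, exact binomial test). Rnf43 came next with 234 counts in mouse 2 and 189 in mouse 1, a log2 ratio of 0.44 (0.16 to 0.73, adjusted p 0.012, exact binomial test). These were low in level, and the intervals are wide. Axin1, with 1850 counts in mouse 2 and 1697 in mouse 1, had a log2 ratio of 0.26 (0.16 to 0.36, adjusted p 1.8e-06, exact binomial test).

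The other 5 that were higher in mouse 2 differed by less. Lrp6, with 5963 counts in mouse 2 and 5733 in mouse 1, had a log2 ratio of 0.19 (adjusted p 2.5e-11, exact binomial test). The log2 ratio was 0.18 for Tcf7, from 996 counts in mouse 2 and 967 in mouse 1, and 0.16 for Fzd4, from 1826 counts in mouse 2 and 1800 in mouse 1. It was 0.13 for Wls, from 1803 counts in mouse 2 and 1809 in mouse 1. For these 4 the raw counts of the mice were close, while the library of mouse 1 was the deeper. Ctnnb1, with 21483 counts in mouse 2 and 22668 in mouse 1, had the smallest log2 ratio that passed, 0.06, which lay between 0.04 and 0.11 over the alternatives. Wnt2b and Lrp5 were lower in mouse 2. Wnt2b had 871 counts in mouse 2 and 1124 in mouse 1, a log2 ratio of -0.23 (-0.36 to -0.10, adjusted p 0.0029, exact binomial test). Lrp5 had 4852 counts in mouse 2 and 5785 in mouse 1, a log2 ratio of -0.12 (adjusted p 2.6e-04, exact binomial test), and this call was lost under total count scaling (log2 ratio -0.07, adjusted p 0.051, exact binomial test). The sign of all 10 ratios was kept under each of the 8 alternatives that gave a value. Adipocyte markers moved the same way as the 8 higher members: all 8 were higher in mouse 2, 7 of them past the test, with a median log2 ratio of 0.66. All 6 chromaffin markers were lower in mouse 2, as Wnt2b and Lrp5 were, 5 of them past the test, with a summed level of 1952 TPM in mouse 2, against 2079.5 TPM in mouse 1. Other lists leaned to a side too: all 5 endothelial and all 4 macrophage markers were higher in mouse 2. Lower in mouse 2 were 7 of 8 capsule, 5 of 6 fasciculata and 6 of 9 glomerulosa markers, while the 4 X-zone markers were split 2 and 2. The part of any of these cells in the results was not tested.

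Wnt4 did not pass the test, with 5898 counts in mouse 2, 6228 in mouse 1 and a log2 ratio of 0.06 (adjusted p 0.12, exact binomial test). Neither did Rspo3, with 627 counts in mouse 2, 620 in mouse 1 and a log2 ratio of 0.15 (-0.01 to 0.31, adjusted p 0.19, exact binomial test). Rspo1 had 82 counts in mouse 2 and 128 in mouse 1, a log2 ratio of -0.50 (-0.93 to -0.10, adjusted p 0.058, exact binomial test). Sfrp5 had 96 counts in mouse 2 and 71 in mouse 1, a log2 ratio of 0.56 with the same adjusted p of 0.058 in the exact binomial test. Fzd10, the lowest ratio of all at -0.93, came from 13 counts in mouse 2 and 29 in mouse 1 and had an adjusted p of 0.11 in the exact binomial test.

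Transcript usage was read from the first quantification as the percent of a gene's TPM. Of the 37 detected members, 10 have 1 annotated transcript, among them Wnt4, Dkk3 and Sfrp1. Of the 27 with several, the leading transcript took over 80% in both mice for 6. Lgr4-201, of 951 codons, took 93.7% in mouse 2 and 88.8% in mouse 1, and Lrp5-201, of 1614 codons, took 83.1% in mouse 2 and 88.2% in mouse 1. Lrp6-201 took 71.8% in mouse 2 and 67.8% in mouse 1.

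Much of the RNA of some members was not in coding transcripts. For Ctnnb1, protein-coding transcripts held 55.9% in mouse 2 and 56.0% in mouse 1, led by Ctnnb1-201 at 44.0% in mouse 2 and 45.6% in mouse 1. The retained-intron transcript Ctnnb1-215, which starts near the 3′ end of the gene, held 28.2% in mouse 2 and 29.5% in mouse 1. The second quantification of the same reads put the coding share of Ctnnb1 at 82.2% in mouse 2 and 76.6% in mouse 1. Coding Ctnnb1 transcripts alone had 161 TPM in mouse 2 and 140 TPM in mouse 1, above the level of every other member. In all, 8 detected members had a coding share under 75% in both mice: Ctnnb1, Apc, Rnf43, Notum, Wnt5a, Porcn, Lgr5 and Wls. In the second quantification 4 of these, Apc, Rnf43, Notum and Wls, were under 75% in both mice, while Porcn had 83.4% in mouse 2 and 84.7% in mouse 1. Lgr5 had 85.2% in mouse 2, against 74.7% in mouse 1, and Wnt5a 71.3% in mouse 2, against 77.7% in mouse 1. In the first, Apc had 54.2% in mouse 2 and 53.2% in mouse 1, and Rnf43 56.8% in mouse 2 and 54.7% in mouse 1.

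**Figure D4:**
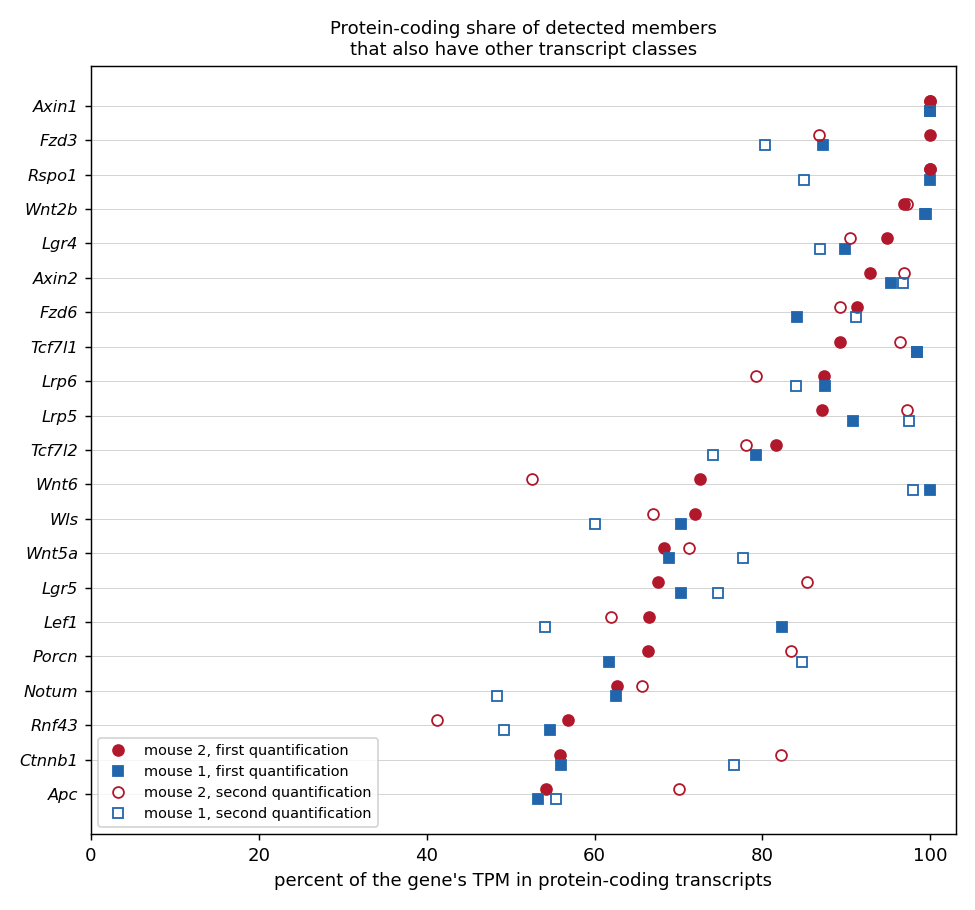
Percent of a gene's TPM in protein-coding transcripts for the detected members that also have other transcript classes, with circles for mouse 2 and squares for mouse 1, filled for the first and open for the second quantification (markers at the same value cover each other). Filled markers of the mice lie close together for Ctnnb1, Apc and Notum, while the open markers of Ctnnb1 lie at 82.2% for mouse 2 and 76.6% for mouse 1.

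RNA of some members was assigned to transcripts with more than 1 annotated start, while the starts themselves were not measured. Tcf7-201 took 72.1% in mouse 2 and 69.7% in mouse 1, and Tcf7-202 took 27.9% in mouse 2 and 30.3% in mouse 1. Both have 303 codons, and their first bases lie 443 bases apart. Rnf43-209, of 784 codons, took 42.8% in mouse 2 and 38.5% in mouse 1. Rnf43-201, of 657 codons, starts 36810 bases downstream and took 14.2% in mouse 2 and 16.2% in mouse 1. The second quantification put Rnf43-201 at 14.9% in mouse 2 but 2.55% in mouse 1, so its share in mouse 1 depended on the quantification. The retained-intron transcript Rnf43-206 took 29.4% in mouse 2 and 38.6% in mouse 1. These shares rest on the small counts of Rnf43 given above.

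Znrf3 and Nkd1 had long and short coding forms. Znrf3-201, of 913 codons, took 57.2% in mouse 2 and 48.9% in mouse 1, and Znrf3-203, of 809 codons, whose start lies 63107 bases away, took 34.7% in mouse 2 and 30.0% in mouse 1. The shortest, Znrf3-202, of 239 codons, took 8.15% in mouse 2 and 21.2% in mouse 1. The second quantification put Znrf3-202 at 0% in mouse 2 and 8.02% in mouse 1. Nkd1-201, of 471 codons, took 42.7% in mouse 2 and 45.8% in mouse 1, while Nkd1-203 and Nkd1-202, of 367 codons each, shared the rest. The second quantification put Nkd1-203 first, with 45.6% in mouse 2 and 39.3% in mouse 1. Wls-201 led Wls with 43.4% in mouse 2 and 38.9% in mouse 1, followed by Wls-205, also of 541 codons. Splits between near-identical transcripts were unstable in the first quantification: Axin1-202 took 29.6% in mouse 2 and 0% in mouse 1, and Axin1-203 0% in mouse 2 and 24.0% in mouse 1. Axin1-201 took 70.4% in mouse 2 and 74.2% in mouse 1. The second quantification put Axin1-201 lower, at 53.3% in mouse 2 and 57.0% in mouse 1. It put Axin1-202 at 46.7% in mouse 2 and 41.2% in mouse 1, and gave Axin1-203 almost nothing in either. Axin2-201 led its gene with 59.2% in mouse 2 and 66.4% in mouse 1, Wnt5a-201 with 61.0% in mouse 2 and 67.2% in mouse 1, and Apc-202 with 23.1% in mouse 2 and 20.6% in mouse 1. The second quantification put Wnt5a-201 at 40.9% in mouse 2 and 48.6% in mouse 1, still first. It raised Wnt5a-202, of 360 codons, to 30.3% in mouse 2 and 29.1% in mouse 1. In the first, Wnt5a-202 had 7.37% in mouse 2 and 1.64% in mouse 1. In the second quantification Apc-202 had 8.35% in mouse 2, against 15.4% in mouse 1, and Apc-203 led with 39.0% in mouse 2 and 22.6% in mouse 1.

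The gene levels of both quantifications lay within 2-fold for the members compared. Even so, the TPM of 19 of the 37 detected members moved by more than the spread between the mice, 18 of them down in the second. Of 38 members with at least 1 TPM in either, none was 2-fold apart on TPM plus 0.1, beside 0.983% of nuclear protein-coding genes that were 2-fold or more higher in the second and 0.479% that were lower. The log2 of second over first, averaged over the mice, ran from -0.44 for Ctnnb1 to 0.34 for Lef1. Its median was -0.12 in the members and -0.05 in nuclear protein-coding genes. The second quantification placed Ctnnb1 at 209 TPM in mouse 2, against 185 TPM in mouse 1, still the highest member.

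Other genes of the pathway were read from lists. All but 1 of the 14 genes of the destruction complex and Dishevelled list reached 1 TPM in both mice, with a median log2 ratio of 0.03, 3 higher and 2 lower in mouse 2 past the exact binomial test. The highest were Csnk1a1, a kinase that primes beta-catenin for degradation, with 74.8 TPM in mouse 2 and 66.9 TPM in mouse 1, and Fbxw11, a subunit of the ligase that marks it, with 37.6 TPM in mouse 2, against 37.8 TPM in mouse 1. The exception was Apc2, with 1.0 TPM in mouse 2 and 0.93 TPM in mouse 1. All 12 nuclear co-factors were detected (median 0.02, 2 higher and 3 lower in mouse 2), led by the co-repressors Ctbp1, with 73.3 TPM in each mouse, and Tle3, with 50.9 TPM in mouse 2 and 39.96 TPM in mouse 1.

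All 13 planar polarity and alternative receptor genes were detected at lower levels (median -0.03, 1 higher and 0 lower in mouse 2 past the test). They were led by Ryk, a Wnt receptor outside the Frizzled family, with 16.9 TPM in mouse 2 and 14.3 TPM in mouse 1, and by Vangl1, a core polarity protein, with 11.9 TPM in mouse 2 and 11.6 TPM in mouse 1. Among 16 other extracellular modulators 8 were detected, and of the 10 tested 3 were higher and 1 lower in mouse 2 (median 0.04). Frzb, a secreted Wnt antagonist related to the Sfrp family, had 84.2 TPM in mouse 2 and 89.4 TPM in mouse 1, and was lower in mouse 2 with a log2 ratio of -0.18. That level was above every one of the 10 inhibitors among the members. Gpc4, a glypican of the cell surface, had 61.9 TPM in mouse 2 and 53.1 TPM in mouse 1.

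Of 9 transcripts often raised by beta-catenin in other tissues 6 were detected, with a median log2 ratio of -0.08, 1 higher and 3 lower in mouse 2 past the test. Ccnd1, a cyclin of the early cell cycle, had 60.4 TPM in mouse 2 and 50.8 TPM in mouse 1, and Cd44, an adhesion receptor, 25.8 TPM in mouse 2 and 24.0 TPM in mouse 1. On scaled counts their log2 ratios were 0.18 and -0.06. These transcripts therefore did not move in 1 direction between the mice.

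**Figure D5:**
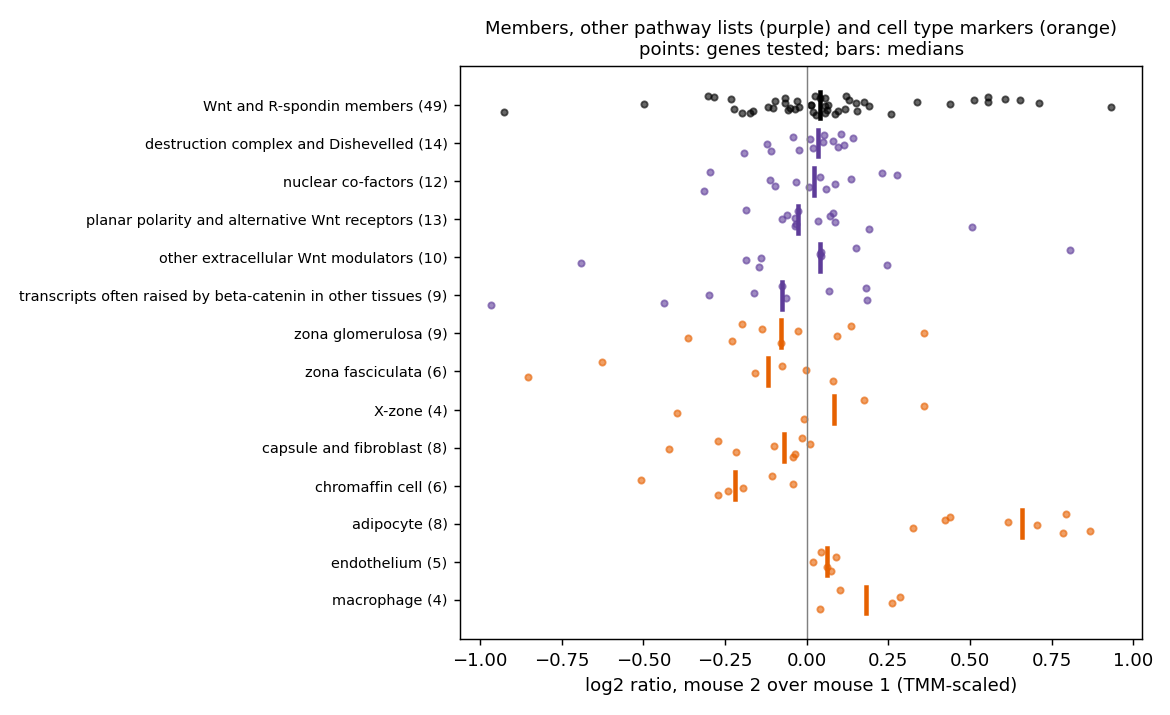
Log2 ratio of mouse 2 over mouse 1 for the members (black), the other pathway lists (purple) and cell type markers (orange), each point a gene tested and each bar a list's median, with the number tested in brackets. The bars of the members and pathway lists lie near 0, between -0.08 and 0.04, while that of the adipocyte markers lies at 0.66.

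Cell type markers were read beside these lists. The zona glomerulosa list, whose zone is the known place of Wnt4, had a median log2 ratio of -0.08, with 2 higher and 5 lower in mouse 2 past the test. It was led by Kcnk3, a potassium channel, with 534 TPM in mouse 2 and 470.4 TPM in mouse 1. On scaled counts Kcnk3 was among the 5 lower, at a log2 ratio of -0.03. Next came Cyp11b2, the aldosterone synthase, with 161 TPM in mouse 2, against 183 TPM in mouse 1. The second quantification gave Cyp11b2 400.3 TPM in mouse 2, against 430 TPM in mouse 1, and its counts in the first were not whole, with a posterior SD of 48.7 counts in mouse 2 and 56.5 in mouse 1. The capsule and fibroblast list, the known place of Rspo3, had a median of -0.07, with 0 higher and 2 lower. Its leaders were Mgp, with 52.5 TPM in mouse 2 and 49.9 TPM in mouse 1, and Dcn, with 50.9 TPM in mouse 2 and 46.2 TPM in mouse 1. On scaled counts their log2 ratios were -0.10 and -0.04, neither past the test. Wnt4 and Rspo3 themselves had log2 ratios of 0.06 and 0.15, neither past the test.

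The medians were -0.12 in the fasciculata list (1 higher, 4 lower), 0.08 in the X-zone list (2 higher, 1 lower) and -0.22 in the chromaffin list (0 higher, 5 lower). They were 0.06 in the endothelial list, with no gene past the test, and 0.18 in the macrophage list (1 higher). The leading markers were Hsd3b1 and Cyp11b1 for the fasciculata, Akr1c18 and Cyp2f2 for the X-zone, Chga and Chgb for chromaffin cells, and Plvap and Emcn for endothelium. For macrophages they were Cd74 and Csf1r, and for adipocytes Cfd, with 754 TPM in mouse 2 and 533 TPM in mouse 1, and Fabp4, with 567 TPM in mouse 2, against 329 TPM in mouse 1. The kidney marker of the highest mean, Aqp2, had 0.14 TPM in mouse 2, against 0.3 TPM in mouse 1, and the ovary marker, Foxl2, 0.32 TPM in mouse 2, against 0.86 TPM in mouse 1. Of the muscle markers, Acta1 had 0.05 TPM in mouse 2, against 0.07 TPM in mouse 1, and Ckm 0.11 TPM in mouse 2 and none in mouse 1.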

How the data were processed

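The data are total RNA sequencing of whole adrenal glands, with 2 libraries in 1 group. Per the deposited text files, the tables use mm10 with GENCODE annotation M21. No source used here names the aligner or the quantifiers. Per the file headers, the authors' gene and transcript tables hold expected counts (estimated, not always whole), TPM, FPKM and each transcript's percent of its gene, with a posterior SD of the counts. A second deposited table holds estimated counts and TPM per transcript. The mm10 reference comes from a strain other than CAST, and alleles were not counted apart.

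Members were chosen by symbol. The members and lists were chosen with earlier results of these data known. Genes named are the members at 1 TPM in both mice, the highest of each family below that, every member past a test, leading transcripts at 10 TPM or more, and the 2 highest of each other list; the values of 1 marker list are not reported here. Other values given for members were chosen after their values were seen.

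Log2 ratios used expected counts of genes with a mean of at least 10, with TMM scaling (edgeR 4.0.16 in R 4.3.3) and a prior count of 2. Counts rounded to whole numbers entered an exact two-sided binomial test (scipy 1.17.1), adjusted by Benjamini-Hochberg at 0.05. The test was tried on simulated counts that held counting error but no variation between animals, so the trial cannot show how it behaves between mice. The p-values of the test and the 95% Clopper-Pearson intervals cover counting error between 2 libraries only, which may be technical. Without molecular identifiers, reads are not separate molecules. Rows that name no gene stayed out. The floor of a count of 0 was 3 counts. Alternatives were total count, DESeq2 1.42.0 median-of-ratios and ERCC scaling, other filters, a prior count of 0.5, FPKM, a fit of nuclear protein-coding genes, other thresholds and pseudocounts of TPM, the second quantification, and each mouse alone.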

Additional observations from a re-analysis of the deposited data

How the results depend on the processing

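The number of members detected in both mice was 37 at 1 TPM, 40 at 0.5 TPM, 20 at 5 TPM and 36 in the second quantification, and 37 to 39 with either mouse alone. None was 2-fold apart between the mice under any setting but that without a filter on counts, where 2 were higher in mouse 2, Wnt9b with 14 counts in mouse 2 and 4 in mouse 1 and Wnt16 with 4 in mouse 2 and 0 in mouse 1. Under total count scaling, which moved the median of all genes to 0.05, 13 members were higher and 1 lower in mouse 2 past the exact binomial test, in place of 8 and 2. Of all genes, 17.0% were higher and 7.67% lower under that scaling. The second quantification gave 10 higher and 4 lower, beside 10.9% and 10.2% of all genes. Each of these settings tested 49 members. Of the 10 members called, 9 were called again under total count scaling, all but Lrp5, and 10 in the second quantification. Wnt4 joined them under both, at a log2 ratio of 0.10 under total count scaling and 0.08 in the second quantification, in place of 0.06. Apc, Axin2, Fzd8 and Sfrp5 also joined under total count scaling, Axin2 at 0.14, and Rspo1, Rspo3 and Dkk3 in the second quantification. With nuclear protein-coding genes alone the 10 were called again and Lgr4 joined them; the test was not rerun under the other scalings. Wnt4 took 54.5% of the ligands' TPM in the second quantification, against 58.1% in the first, and the cause was not tested. The TPM of 19 of the 37 detected members moved by more than the spread between the mice in the second quantification, 18 of them down. With TPM taken over nuclear protein-coding genes alone all 37 rose, Wnt4 to 131 TPM in place of 40.6 TPM. The median log2 ratio of the members lay between 0.02 and 0.09 under the 8 alternatives. No called log2 ratio of a member changed sign under these alternatives. Leading transcripts were less stable, since 10 of 13 shares moved by more than the spread between the mice in the second quantification, and the lead changed in 2, Apc and Nkd1. Detection and small ratios are limited by depth for members under 100 counts, and 2 mice of 1 group allow no test between conditions. No paired analysis was possible because there is 1 group.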
